A study of Caenorhabditis elegans with 2 samples.

Results

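The regions described here were the 610 autosomal NHR-80 binding peaks that lay in intergenic sequence away from promoters and were closer to a gene start than to a gene end. They were 610 of the 7038 peaks in the authors' thresholded list, which takes peaks of both replicates pooled down to a reproducibility limit, and of its 5388 peaks on the 5 autosomes. A peak was included when its summit, the position of its highest signal, lay in no annotated gene and not within 1000 bp upstream or 200 bp downstream of the start of any protein-coding gene. The nearest boundary of a protein-coding gene also had to be a 5′ end. No peak signal entered the rule beyond the authors' own threshold.

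Chromatin immunoprecipitation sequencing was done on hermaphrodite young adults of Caenorhabditis elegans strain OP460, taken whole at 64 h after synchronisation as starved L1 larvae. All animals carried the allele unc-119(tm4063) and the transgene wgIs460, which expresses NHR-80 with GFP and FLAG at its C terminus. The labels disagree on the antibody, with GFP named in the description and nhr-80 in another field. There were 2 biological replicates of this 1 group, no other genotype or treatment, and no read counts in the peak lists, so the depth of each library is unknown. Whole animals were used, so the tissue in which a site was bound cannot be told from these data.

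NHR-80 belongs to the nuclear hormone receptors related to mammalian HNF4, transcription factors with a zinc finger domain that binds DNA and a domain that can bind a ligand. In C. elegans it is known for its part in the expression of the delta-9 desaturases, the enzymes that place the first double bond in saturated fatty acids. Most worm genes have compact upstream sequence, and regulatory elements far from a gene start are known mainly where intergenic stretches are long. The gene with the nearest start is a label of position for each peak, since an element may act on another gene.

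The sequences under the strongest summits are shown as examples of these distal sites. Of the 9 strongest peaks, 8 are printed on the plus strand of ce11 (WBcel235), 101 bp each, centred on the summit and named by the gene with the nearest start. The remaining one, nearest to F21C3.6, is not printed because sequence of its chromosome is not shown here, and it held none of the 10 short sequences searched. They came from chrV:8651488-8651588 (asp-13), chrIV:14594425-14594525 (irld-18), chrIV:13725318-13725418 (ent-4), chrIV:12834076-12834176 (M02B1.3), chrV:18346211-18346311 (C08E8.3), chrII:4089407-4089507 (R11F4.1), chrV:9080102-9080202 (T27E4.7) and chrIV:4705333-4705433 (ogdh-1). Capitals mark TGATAA, which reads TTATCA from the other strand and is the hexamer that GATA factors bind, GAGAGA, a short GA repeat, and CACGTG, the E-box of many basic helix-loop-helix factors.
asp-13: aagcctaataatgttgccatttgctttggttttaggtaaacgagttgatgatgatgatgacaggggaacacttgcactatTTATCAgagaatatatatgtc
irld-18: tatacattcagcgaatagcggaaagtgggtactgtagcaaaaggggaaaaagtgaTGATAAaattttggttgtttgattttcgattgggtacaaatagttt
ent-4: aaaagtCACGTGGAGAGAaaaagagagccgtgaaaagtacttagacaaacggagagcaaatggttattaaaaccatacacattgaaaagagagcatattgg
M02B1.3: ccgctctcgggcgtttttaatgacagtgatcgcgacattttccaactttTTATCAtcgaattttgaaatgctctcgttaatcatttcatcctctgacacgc
C08E8.3: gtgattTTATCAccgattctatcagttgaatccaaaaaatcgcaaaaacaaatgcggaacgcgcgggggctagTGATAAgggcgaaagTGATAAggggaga
R11F4.1: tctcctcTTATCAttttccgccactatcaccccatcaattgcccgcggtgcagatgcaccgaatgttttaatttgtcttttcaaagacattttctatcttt
T27E4.7: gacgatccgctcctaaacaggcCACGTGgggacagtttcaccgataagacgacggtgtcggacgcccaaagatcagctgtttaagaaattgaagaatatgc
ogdh-1: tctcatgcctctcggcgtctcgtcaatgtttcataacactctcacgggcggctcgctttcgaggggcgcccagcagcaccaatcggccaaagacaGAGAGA
TGATAA was present at asp-13, irld-18, M02B1.3 and R11F4.1 once each and at C08E8.3 in 3 copies. The ent-4 summit held CACGTG and GAGAGA side by side, the T27E4.7 summit held CACGTG, and the ogdh-1 summit held GAGAGA at the edge of the window. These strongest sites do not stand for all, since 246 of the 610 summits (40.3%) held neither TGATAA nor GAGAGA within 50 bp.

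The strongest peak of all lay far from any gene. Its summit was 8345 bp upstream of asp-13, which encodes a member of the aspartyl protease family, in an intergenic stretch of 22871 bp that it shares with ZC190.4. The pooled signal value, the peak caller's own measure of enrichment, was 1254, and it ranked 15 in the whole list. The same site had 641 in replicate 1 and 611 in replicate 2, where it ranked 19 and 10. The second strongest, at 1159.9, was 13436 bp upstream of irld-18, a gene of the insulin and EGF receptor L domain family, with 619.7 in replicate 1 and 539.8 in replicate 2. The intergenic stretch there was 35563 bp long, with dmd-6, a gene for a DM-domain transcription factor, on its far side.

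Next came a peak 1562 bp from ent-4, an equilibrative nucleoside transporter gene, at 1022 pooled, 540.4 in replicate 1 and 483 in replicate 2. The M02B1.3 peak reached 1017 pooled, with 575 and 449 in replicates 1 and 2, at 2382 bp. The C08E8.3 peak had 995 pooled, 534 in replicate 1 and 462 in replicate 2, at 3868 bp. In each of these the summit stood among the 45 strongest of both replicates' own lists. The R11F4.1 peak reached 956 pooled, with 501 and 453 in replicates 1 and 2. The T27E4.7 peak had 933 pooled, 517 in replicate 1 and 419 in replicate 2. Its intergenic stretch ends at hsp-16.1, a small heat shock protein gene, 7141 bp away. The ogdh-1 peak, 1372 bp from the start of a gene for a 2-oxoglutarate dehydrogenase component of the tricarboxylic acid cycle, had 919.5 pooled, 490.1 in replicate 1 and 432 in replicate 2.

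The 25 strongest peaks found in both replicates ran from 653 to 1254 in pooled signal and ranked from 15 to 248 in the whole list. Of the 25, 14 were more than 2000 bp from the nearest gene start and 3 more than 5000 bp. Of all 610 peaks, 323 and 65 were that far, which are similar shares. TGATAA was within 50 bp of the summit in 15 of the 25 and GAGAGA in 4, against 247 (40.5%) and 149 (24.4%) of all 610. Among the nearest genes of the 25 were regulators and enzymes. The cyclin-dependent kinase inhibitor gene cki-1 had a peak of 809 at 2137 bp, which was 100 bp from a gene annotated as ncRNA. The 2 nuclear hormone receptor genes nhr-31 and nhr-21 had 774 at 2828 bp and 653 at 1530 bp. The homeobox gene hmbx-1 had 754 at 2800 bp, and sup-26, which encodes an RNA-binding protein, had 744 at 1993 bp. The acyl-CoA synthetase gene acs-6 had 723 at 1618 bp, and ampd-1, an AMP deaminase gene, had 654 at 1167 bp. The others were at F21C3.6 (928), C05A2.4 (788), gldi-3 (765), gei-13 (752), W06H8.6 (724), Y37A1A.2 (707), C45E1.4 (683), M106.2 (674), algn-10 (666) and fbxa-30 (665), all pooled signal values.

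For several of these the nearest start was a close call. The algn-10 summit was 1791 bp from algn-10 and 1806 bp from mom-5, the gene of a Frizzled receptor for Wnt signals. The gldi-3 summit was 2926 bp from gldi-3 and 2951 bp from mtrr-1, a methionine synthase reductase gene. The acs-6 summit lay 2452 bp from cth-2, a cystathionine gamma-lyase gene, on its other side. Of all 610 peaks, 360 (59%) lay between 2 genes that point away from each other, and in 102 of these the farther start was at most 1.5 times as distant as the nearer. The remaining 250 (41%) lay between genes that point the same way. The location rule itself favours pairs that point away, since such stretches have no gene end. Median pooled signal was 193 between diverging genes and 222 between genes in tandem, a difference that was not tested.

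The replicates placed nearly all of these peaks. Of the 610, 567 (93%, 95% Wilson interval 90.6 to 94.7) matched a peak in the top 7038 of replicate 1 and of replicate 2, and over all autosomal thresholded peaks the share was 89.1%. Gene-end peaks were the 532 autosomal peaks that met the same rule except that the nearest boundary was a 3′ end. The rule leaves out no window next to gene ends. Their median distance to that end was 762 bp, against 2158 bp to the nearest start for the 610. The gene-end peaks reached 91% (484 of 532). The difference of 1.97 percentage points (95% Newcombe interval -1.18 to 5.24) did not pass (adjusted p = 0.23, two-sided Fisher's exact test). Intergenic promoter peaks, the 2054 that lay in no gene but in a promoter window, reached 88.6% (1820 of 2054). That share was 4.34 percentage points below that of the distal peaks (95% interval 1.69 to 6.63, with an adjusted p of 0.00377 by Fisher's exact test over 2 comparisons). The difference was 1.73 percentage points against replicate 1 alone (adjusted p = 0.218, exact) and 0.226 against any peak of both full lists (adjusted p = 1, exact), so it rested on replicate 2 and on the rank limit. These lists were used to set the threshold, so the overlap does not measure agreement independently.

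**Figure D1:**
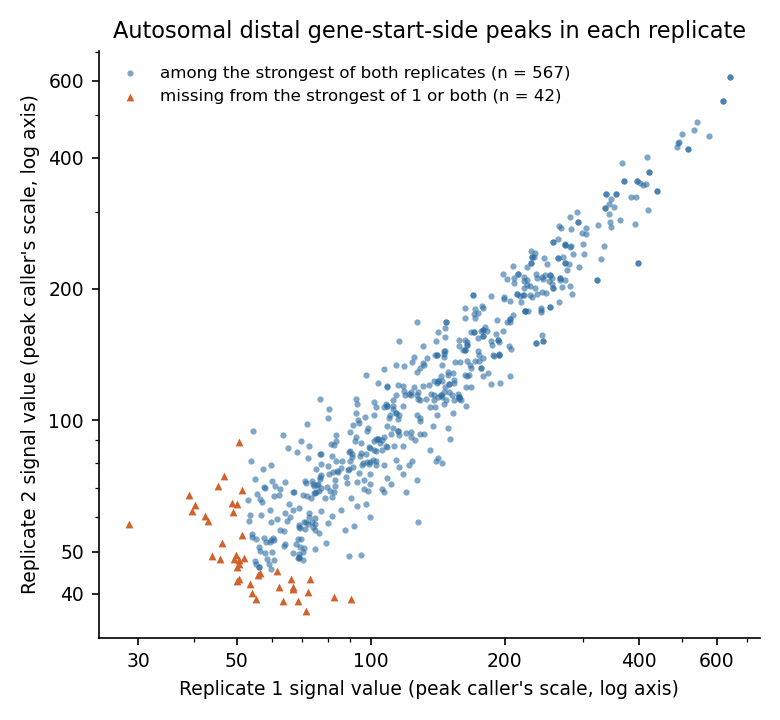
Signal value of each peak in replicate 2 (vertical log axis) against replicate 1 (horizontal log axis), on the peak caller's scale, for the 609 of 610 distal gene-start-side peaks present in both full lists. The 567 circles overlap the strongest peaks of both replicates, and the triangles, which miss at least 1 of these lists, all sit at the low end, as the rank limit requires.

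The 43 peaks that missed 1 or both strongest lists were weak ones, with pooled signal between 93.1 and 151. The strongest of them, nearest to F16A11.1, had 151 pooled and 90.3 in replicate 2 and was the single peak absent from the full list of replicate 1. At R12G8.1 a pair of weak neighbouring peaks leaned opposite ways. The first had 50.7 in replicate 1 and 89.3 in replicate 2, and the second had 82.7 in replicate 1 and 39.3 in replicate 2. The ratio of replicate 1 to replicate 2 signal had a median of 1.14 over 609 peaks, and 95% of the peaks were below 1.57. The replicates' scales were not made comparable by the authors as far as the sources used here say, so this ratio describes the lists and not a change in binding.

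Within the thresholded list, which holds only strong peaks, the distal peaks were about as strong as the other intergenic peaks. Their pooled signal ran from 93.1 to 1254 with a median of 205, against a median of 209.6 in gene-end peaks and 192 in intergenic promoter peaks. More than the autosomal median of 192, which by construction 50% of autosomal peaks exceed, was seen in 329 of 610 distal peaks (53.9%, 95% Wilson interval 50 to 57.9). The share was 54.3% in gene-end peaks (289 of 532), a difference of -0.389 percentage points (95% interval -6.16 to 5.39, with an adjusted p of 0.905 by Fisher's exact test). It was 50.1% in intergenic promoter peaks (1030 of 2054), a difference of 3.79 percentage points (interval -0.729 to 8.26, with an adjusted p of 0.213 by Fisher's exact test). Both intervals include 0, and neither p shows that the groups are alike. When the location rule was applied to each replicate's own strongest peaks, it selected 625 of 5383 autosomal peaks in replicate 1 and 622 of 5355 in replicate 2. Above the median of their own list were 53.3% ± 0.386 of these (SD, n = 2).

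**Figure D2:**
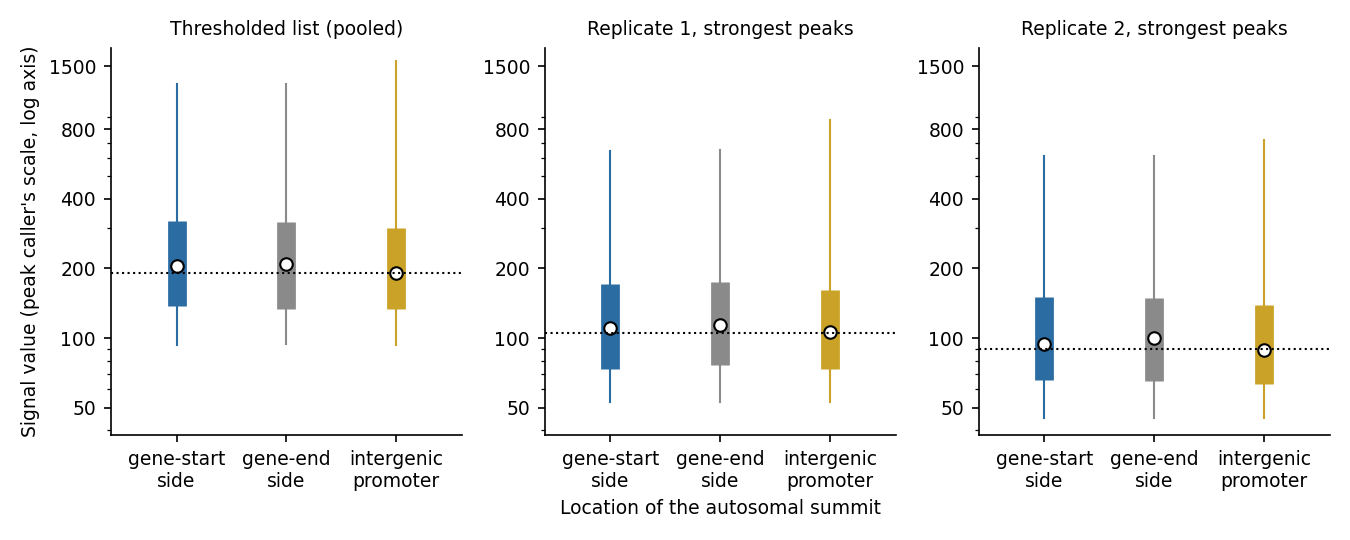
Signal values (log axis, peak caller's scale) of distal gene-start-side, gene-end-side and intergenic promoter peaks on the autosomes, in the thresholded list and among each replicate's strongest peaks. Circles are medians, thick bars the middle quartiles and thin lines the full range. The dotted line is the median of all autosomal peaks in that list. Each list is cut by the threshold or by rank, and the 3 locations overlap almost entirely in each panel.

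In the full pooled list, before the threshold, 1958 autosomal peaks met the location rule, and 871 of them (44.5%, 95% Wilson interval 42.3 to 46.7) overlapped a thresholded peak. Of all 24592 autosomal pooled peaks, 32% did. The share was 38.8% on the gene-end side (730 of 1883), 5.72 percentage points lower than on the gene-start side (interval 2.6 to 8.82, with an adjusted p of 3.59e-04 by Fisher's exact test). Intergenic promoters had 53.4% (2734 of 5120), so the distal share differed from it by -8.91 percentage points (interval -11.5 to -6.32, with an adjusted p of 4.08e-11 by Fisher's exact test). With the autosomal median signal as the limit in place of the authors' threshold, the difference was -1.63 points and did not pass (adjusted p = 0.173, exact). Counting only pooled peaks with the same summit as a thresholded one, the shares were 31.2% on the gene-start side and 28.3% on the gene-end side, and this difference of 2.9 points did not pass (adjusted p = 0.0521, exact). The thresholded peaks are the strongest of the pooled list, so these shares describe how signal was spread over locations. Over the whole pooled list, median signal was 37.1 on the gene-start side, 30.4 on the gene-end side and 62.7 in intergenic promoters. The autosomal median of that list was exceeded by 63%, 59.2% and 74.3% of them, differences that were not tested.

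Peaks over the 5 autosomes together were denser on the gene-start side of intergenic sequence than on the gene-end side. The bases that meet the location rule, called territory here, came to 8.14 Mb on the gene-start side, or 9.86% of the autosomes, and 8.32 Mb on the gene-end side. The 610 peaks made 74.9 per Mb (95% exact Poisson interval 69.1 to 81.1), against 64 per Mb for the 532 gene-end peaks. The ratio was 1.17 (interval 1.04 to 1.32, p = 0.00773, two-sided exact binomial test). With peaks above the autosomal median signal only, it was 1.16 and did not pass (p = 0.0642, exact). The densities differed most on chromosome I, with 99.4 per Mb on the gene-start side and 67.5 on the gene-end side, and stood the other way round on chromosome III, with 84.9 and 89.9 per Mb. The ratio was not tested within chromosomes. These tests count peaks as independent, although 70 of the 610 shared their interval with another of the 610.

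Within the gene-start side, density fell with distance from the nearest start. Between 1000 and 2000 bp there were 287 peaks, or 93.4 per Mb of territory. The next 2 bins, up to 3000 bp and up to 5000 bp, held 130 peaks (73.6 per Mb) and 128 peaks (69.9 per Mb). Beyond 5000 bp there were 65 peaks, or 44.1 per Mb. The nearest bin was 1.47 times as dense as all territory beyond it, at 93.4 against 63.7 per Mb (p = 2.73e-06, exact binomial test). Median signal showed no such order, with 200.3, 221, 216 and 184 in the 4 bins, and the share of summits with TGATAA was 40.8%, 38.5%, 40.6% and 43.1%. The distances ran from 1002 to 13648 bp with a median of 2158 bp.

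At the limits of the rule, the peaks closest to a start were at aat-8 (1002 bp, signal 152), C09G9.1 (1007 bp, 232) and ttr-41 (1011 bp, 573). Just inside the promoter window were peaks at let-23, the EGF receptor gene (999 bp, 404), T28C6.7 (999 bp, 118) and nhr-69 (995 bp, 97.3). The farthest were a pair of summits of 1 interval at irld-18 (13436 and 13648 bp, signals 1159.9 and 161) and a peak of 469 at C30G12.2 (12975 bp). The C30G12.2 summit was 172 bp from a gene annotated as ncRNA.

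**Figure D3:**
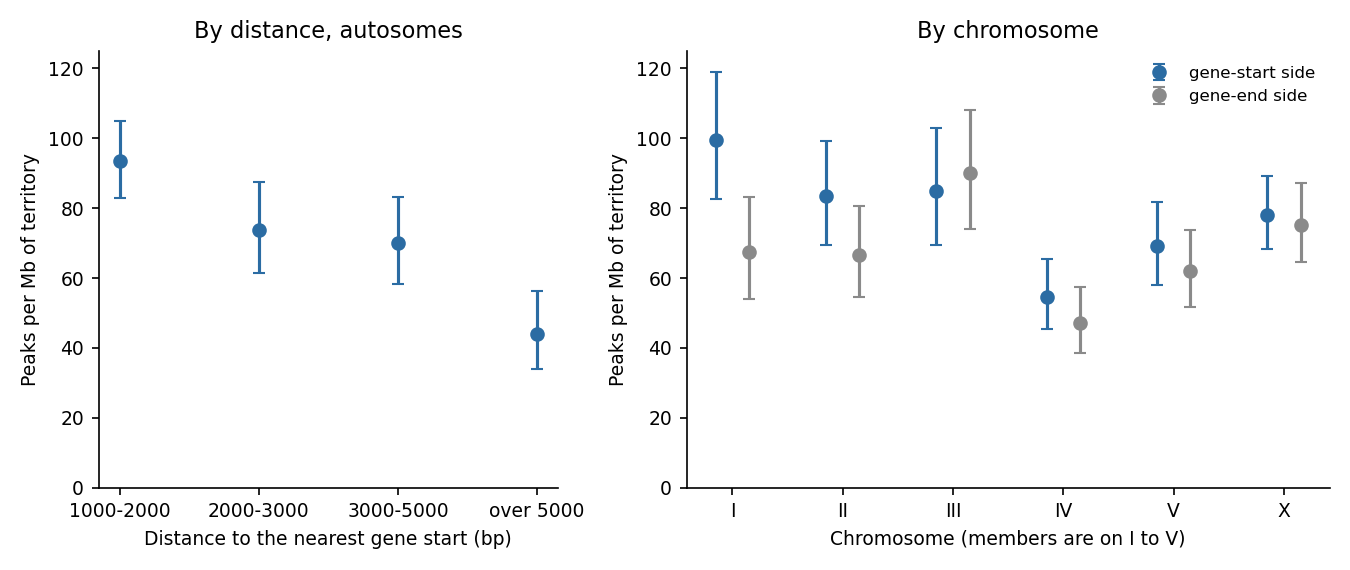
Peaks per Mb of territory with 95% exact Poisson intervals, by distance of the summit from the nearest gene start on the autosomes (left) and by chromosome (right) for gene-start-side (first, blue) and gene-end-side (second, grey) peaks. The left panel falls from 93.4 to 44.1 per Mb; on the right, chromosome IV has the lowest density on either side.

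Chromosomes differed in density. Chromosome I had 123 peaks, 99.4 per Mb, which was 1.41 times the density of the other autosomes (adjusted p = 0.00261, exact binomial test over 5 chromosomes). Chromosome IV had 54.7 per Mb, or 0.664 times that of the others (adjusted p = 1.84e-04, exact binomial test). Chromosomes II, III and V had 83.4, 84.9 and 69.1 per Mb and did not pass, although chromosome III passed with the strongest peaks of replicate 2 alone (1.26 times, adjusted p = 0.0441, exact). With peaks above the autosomal median signal only, chromosome I did not pass (1.35 times, adjusted p = 0.0944, exact), and with the promoter window of 2000 bp no chromosome did. On chromosome IV, 34.8% of the territory lay within 200 bp of a gene that is not protein-coding, against 5.12% to 8.9% on the other autosomes. Once sequence and peaks within 200 bp of such genes were left out, the ratio was 1.32 for chromosome I (adjusted p = 0.0548, exact) and 0.833 for chromosome IV (adjusted p = 0.209, exact), and no chromosome passed. On the X chromosome the same rule gave 221 peaks, 78.1 per Mb, so the autosomes had 0.959 times the density of X (interval 0.821 to 1.12). On the gene-end side that ratio was 0.849 (interval 0.716 to 1.01).

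Some of these peaks were distal to protein-coding genes only. A gene that is not protein-coding lay within 200 bp of the summit in 74 of the 610 (12.1%), against 15.2% of gene-end peaks, and 14.3% of the gene-start-side territory lay that near to such a gene. The 74 had a median signal of 216, against 203 in the remaining 536. Of the 74, 42 were next to genes annotated as ncRNA (median signal 269), 8 next to lincRNA genes, 8 next to pseudogenes, 7 next to piRNA genes, 4 next to tRNA genes, 3 next to snoRNA genes and 2 next to miRNA genes. Peaks named in this text that lay next to an ncRNA gene include those at cki-1 (100 bp), daf-4 (138 bp), pop-1 (146 bp) and elo-3 (31 bp). So did the peaks at let-418 (532, 88 bp), C30G12.2 (469, 172 bp), srg-26 (171 bp) and eps-8 (433, 55 bp). The klf-3 peak of 556 was 192 bp from a lincRNA gene.

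TGATAA, the GATA factor hexamer, was the sequence most concentrated at these summits. It was present on either strand within 50 bp of 247 of 610 summits (40.5%), against 72 (11.8%) in flanks from 200 to 250 bp on each side. The difference of 28.7 percentage points came from 218 peaks with it at the summit only and 43 with it in the flanks only (adjusted p = 2.34e-28, two-sided exact McNemar test over 10 sequences). Among all autosomal thresholded peaks 38.5% held TGATAA, so the share in the distal peaks was near the background of binding sites. Of 73841 windows of 101 bp that tile the territory, 8.81% held it. In bins of 20 bp, 73 and 66 peaks had a match centred just left and just right of the summit, against 13 to 26 in the bins from 100 to 300 bp away.

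GAGAGA was present at 149 summits (24.4%) against 40 flanks (6.56%), a difference of 17.9 percentage points (adjusted p = 2.84e-17, exact McNemar test). All autosomal peaks had it at 20.7% and the tiled windows at 5.99%. Its profile was broader, with 32 and 50 peaks in the bins beside the summit and 8 to 35 beyond 100 bp. CACGTG was present at 26 summits (4.26%) against 8 flanks (1.31%; adjusted p = 0.00978, exact McNemar test), with 4.31% over all autosomal peaks and 1.43% of tiled windows. With peaks above the median signal only, CACGTG no longer passed (adjusted p = 0.0755, exact). The 32 peaks with both TGATAA and GAGAGA had a median signal of 243, the 215 with TGATAA only had 228, the 117 with GAGAGA only had 200.1, and those with neither had 194.

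**Figure D4:**
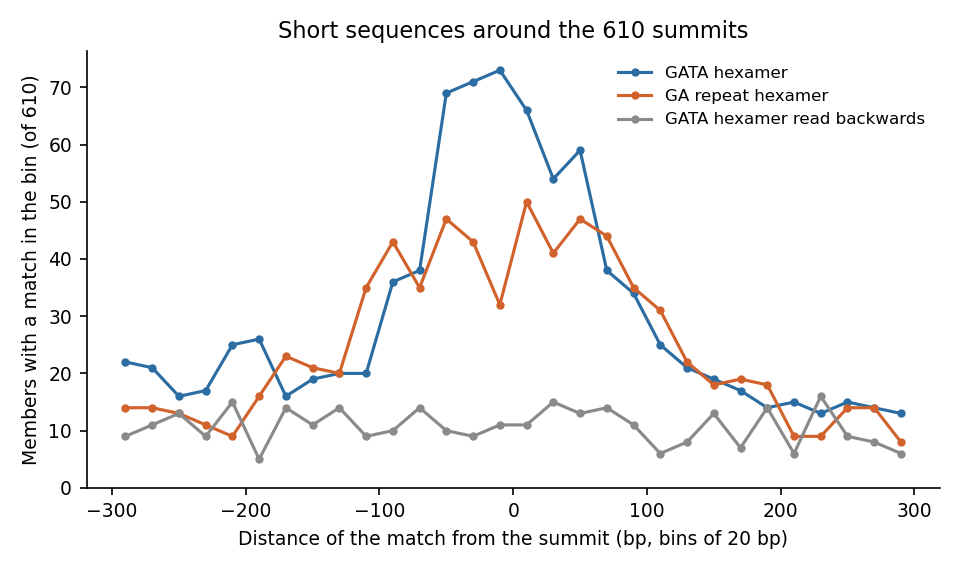
Number of the 610 distal peaks with a match to the GATA hexamer TGATAA, the GA repeat hexamer or that GATA hexamer read backwards. The last is a control with the base composition of the GATA hexamer only. Matches are placed by distance of their centre from the summit in bins of 20 bp. The GATA hexamer peaks at 73 next to the summit, the GA repeat forms a broader plateau, and the backwards control stays between 5 and 16.

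The other 7 sequences did not pass against the flanks in the 50 bp window. Of these, CANCTG passed with replicate 1 alone (adjusted p = 0.0402, exact), with the promoter window of 2000 bp (adjusted p = 0.0401, exact) and within 100 bp (adjusted p = 0.0343, exact). AGATAA also passed with that promoter window, and TGANTCA and TGTTTAC within 100 bp. AGGTCA, the core site of many nuclear hormone receptors, was at 19 summits and 16 flanks (adjusted p = 0.8, exact McNemar test), and AAGTCCA, part of HNF4-type sites, at 2 summits and 3 flanks. The forkhead sequence TGTTTAC was at 12 summits and 7 flanks and TGANTCA, the bZIP site, at 29 and 15 (adjusted p = 0.0962, exact). AGATAA, which shares the letters GATAA with TGATAA, was at 49 and 38 (adjusted p = 0.424, exact). CANCTG was at 100 and 76 (adjusted p = 0.141, exact) and AATAGT, which is TGATAA read backwards, at 59 and 50. CANCTG does not overlap CACGTG in its letters, and the flanks offer slightly fewer positions than the summit window because they are separate stretches. Summits also had a higher GC content than their flanks, 40.8% ± 7.76 against 34.6% ± 7.45 (SD over 610 peaks). The part of base composition in these counts was not tested beyond the backwards control, which has the composition of TGATAA only. For GAGAGA and CACGTG there was no such control. A match to these letters is a description and not a bound site.

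None of the 10 sequences differed in share between distal gene-start-side and gene-end-side peaks by Fisher's exact test, and 0 of the 10 had an unadjusted p under 0.05. TGATAA was at 40.5% on the gene-start side and 37.2% on the gene-end side, a difference of 3.27 percentage points (95% interval -2.4 to 8.89, with an adjusted p of 0.868 by Fisher's exact test). GAGAGA was at 24.4% and 23.1%, a difference of 1.31 points (interval -3.66 to 6.22).

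Among the distal peaks, those with TGATAA exceeded the autosomal median signal in 143 of 247 cases (57.9%, 95% Wilson interval 51.7 to 63.9), and those without it in 186 of 363 (51.2%, interval 46.1 to 56.3). The difference of 6.66 percentage points did not pass (p = 0.116, Fisher's exact test). It was 10.8 points in replicate 2 alone (p = 0.00865, exact) and 11.6 points when TGATAA was sought within 100 bp (p = 0.00525, exact). The difference did not pass in replicate 1 alone (7.07 points, p = 0.0874, exact) or within 25 bp (7.48 points, p = 0.123, exact). With 1 summit per interval it was 5.35 points and did not pass either (p = 0.231, exact). TGATAA was at 47 of the 100 strongest and 26 of the 100 weakest distal peaks.

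The 610 peaks had 468 nearest genes, which is 2.71% of the 17242 autosomal protein-coding genes and 10.4% of the 4510 that had any territory. A single peak was found at 364 of these genes, 2 peaks at 73, 3 at 26, 4 at 3 and 5 at 2. A peak in the gene's own promoter window was also present at 147 of the 468 genes (31.4%), against 537 of the 4042 genes with territory and no distal peak (13.3%), a difference that was not tested. Most of the 468 genes, like fat-1 and crtc-1, had no thresholded promoter peak. Having none was more common still among the 4042 genes without a distal peak.

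The most peaks were upstream of crtc-1, a coactivator of the CREB transcription factor, and of dmd-6. At crtc-1 there were 5 between 1560 and 6763 bp, with signals of 273, 264, 171, 134 and 118. At dmd-6 there were also 5, between 2230 and 6634 bp, from 101 to 229. All 10 were found among the strongest peaks of both replicates, although no signal among them was high. At asp-13 there were 4 peaks between 5245 and 10576 bp, at W06H8.6 also 4, between 1629 and 3881 bp, and at let-418, which encodes the Mi-2 chromatin remodeller, also 4, between 2134 and 6714 bp. The let-418 peaks had signals of 532, 402, 261 and 147, with 281, 243, 148 and 75 in replicate 1 and 249, 157, 111 and 68 in replicate 2, and 3 of the 4 held TGATAA. Summits of 1 interval share a replicate value, so some of these peaks, such as the crtc-1 pair at 273 and 134, are 2 summits of 1 broad site.

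The genes with 3 peaks and the highest summed signal were T27E4.7 (933 at most), lpin-1 (627), C30G12.2 (469), fat-1 (580.2), nhr-31 (774), igeg-1 (527) and T22F7.1 (534). The strongest peak of lpin-1, which encodes the phosphatidate phosphatase lipin, had 399 in replicate 1 and 229 in replicate 2. Its 3 peaks lay between 2389 and 3397 bp upstream and 2 of them held TGATAA.

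Of the 7 fatty acid desaturase genes fat-1 to fat-7, fat-1, fat-2 and fat-5 had distal peaks. Of the 3 delta-9 desaturase genes, fat-5, fat-6 and fat-7, only fat-5 had one, and it was below the autosomal median signal. The fat-6 and fat-7 genes had no territory by the rule, and thresholded peaks in their promoter windows numbered 2 and 0. The fat-3 gene had no territory and fat-4 had 37 bp, and each had 1 promoter peak. These 4 genes without a distal peak were looked up after the values of the others were seen. At fat-1 (chrIV:13315644-13318811, plus strand), the omega-3 desaturase gene, 3 summits lay 1070, 1271 and 2375 bp upstream. The middle one was the strongest, with 580.2 pooled, 293 in replicate 1 and 285 in replicate 2, and held GAGAGA. The summit at 1070 bp had 138 pooled and lay in an interval that overlaps the same replicate peaks. The farthest had 292 pooled, 146 in replicate 1 and 144 in replicate 2, and held TGATAA. At fat-2 (chrIV:13323873-13326395, plus strand), the delta-12 desaturase gene downstream of it, a summit 1223 bp upstream had 508 pooled, 271 in replicate 1 and 237 in replicate 2. At fat-5 (chrV:17725004-17726818, plus strand), a delta-9 desaturase gene, a summit 1461 bp upstream had 179 pooled, 98 in replicate 1 and 80.4 in replicate 2, and held TGATAA. No thresholded peak lay in the promoter window of any of these 3 genes.

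The nhr-80 gene itself, its partner nhr-49 and mdt-15, which encodes a subunit of Mediator, had no territory by the rule and so could have no such peak. The SREBP gene sbp-1 had 6155 bp of territory and no peak in it, while 1 thresholded peak lay in its promoter.

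Genes of lipid metabolism had 11 distal peaks at 9 of 91 autosomal genes (9.89%, against 2.71% of all autosomal protein-coding genes). Per territory this was 426 per Mb (95% exact Poisson interval 213 to 762), against 74.9 per Mb over all genes, and the median signal was 292 against 205 over all 610. On the gene-end side 8 of the 91 genes (8.79%) had a peak, against 2.6% of all genes, and the gene-start and gene-end shares were not tested against each other. All 11 were among the strongest peaks of both replicates, 9 exceeded the autosomal median and 8 held TGATAA. Over all 610 these shares were 93%, 53.9% and 40.5%. Besides the desaturases and acs-6, they included acs-20, another acyl-CoA synthetase gene (522 pooled, 273 in replicate 1, 254 in replicate 2), the fatty acid elongase gene elo-3 (432 pooled), acs-2 (236 pooled), cpt-1, a carnitine palmitoyltransferase gene, and mecr-1. The territory of this list was only 0.0258 Mb.

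Nuclear hormone receptor genes, the family of NHR-80, had 31 peaks at 20 of 247 genes (8.1%), or 165 per Mb, with a median signal of 208. After nhr-31 and nhr-21, the strongest was nhr-41 at 7081 bp, with 578 pooled, 304 in replicate 1 and 276 in replicate 2. Others were nhr-61 (518 and 117), nhr-76 (414), nhr-105 (393 and 131) and nhr-34 (340.4, 215 and 117), all pooled signals. In this list 28 of the 31 were among the strongest of both replicates and 8 held TGATAA, against 93% and 40.5% of all 610. On the gene-end side 6 of the 247 genes (2.43%) had a peak, against 2.6% of all genes.

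Krüppel-like, SP and forkhead factor genes had 9 peaks at 5 of 17 genes (29.4%, against 2.71% of all genes). This was 317 per Mb (interval 145 to 602), with a median of 288. They were at klf-3 (556 and 146), klf-1 (463 and 288), sptf-3 (395, 266 and 127), daf-16, the FOXO factor of insulin signalling, and fkh-7. Regulators of lipid metabolism had 10 peaks at 7 of 22 genes (31.8%), 295 per Mb (interval 142 to 543), with a median of 281. Of these 7 genes, 5 are also in other lists. The lipid regulators included pqm-1, a zinc finger factor of the stress response (308 pooled, 163 in replicate 1 and 145 in replicate 2). Other regulators with such peaks were hif-1, the hypoxia-inducible factor (342 and 123), zip-5 (466 and 280.4 in 1 interval), unc-62, a Meis-type homeobox gene (290.0), sem-2 (253) and end-1, a GATA factor gene (188).

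**Figure D5:**
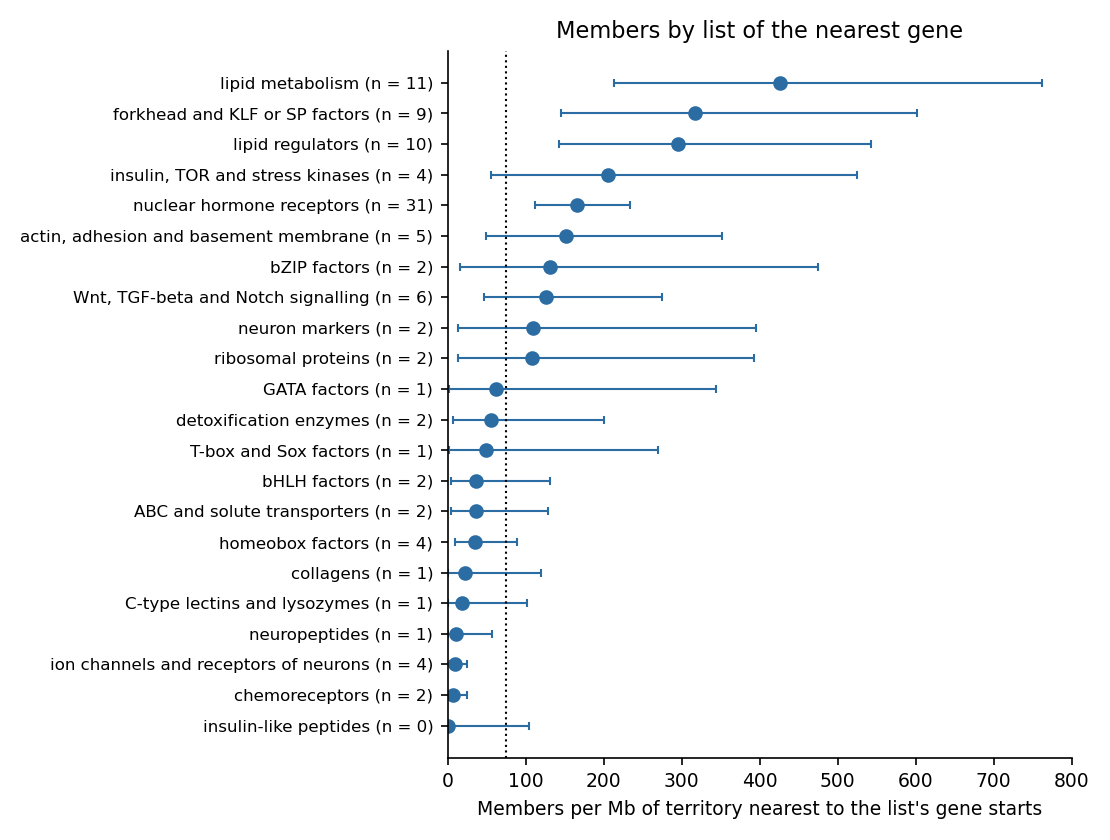
Distal peaks per Mb of the territory nearest to the gene starts of each list, with 95% exact Poisson intervals that cover counting error only, for the 22 lists with at least 0.015 Mb of territory; n is the number of peaks. The dotted line is the density over all autosomal protein-coding genes, 74.9 per Mb; lipid metabolism stands highest at 426 and the insulin-like peptides are at 0.

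The 3 lists of signalling and adhesion genes had small counts of peaks, over little territory. Their shares of genes with a peak compare with 2.71% of all autosomal protein-coding genes. The Wnt, TGF-beta and Notch list had 6 peaks at 5 of 34 genes (14.7%), or 126 per Mb (interval 46.4 to 275), among them daf-4, the type II TGF-beta receptor gene (638 pooled, 343 in replicate 1, 297 in replicate 2), pop-1, the TCF factor gene (475), and dsl-1 (303). The list of insulin, TOR and stress kinases had 4 peaks at 2 of 22 genes (9.09%), or 205 per Mb (interval 55.9 to 525), at nsy-1, a MAP kinase kinase kinase gene (468 and 293 in 1 interval), and rsks-1, the S6 kinase gene (456). The actin and adhesion list had 5 at 4 of 23 genes (17.4%), or 151 per Mb (interval 49 to 352), with ifb-2 at 456, eps-8 at 433 and nid-1 at 216. All 3 densities were above the 74.9 per Mb over all genes, and all 3 intervals include it.

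Chemoreceptors and neuronal channels and receptors had the fewest peaks for their territory among the lists with at least 2 peaks. The chemoreceptors had 2 peaks at 2 of 1331 genes, srg-26 (457) and srj-15 (151), or 6.71 per Mb (interval 0.812 to 24.2), although 300 of these genes had territory. The list of ion channels and receptors of neurons had 4 peaks at 4 of 264 genes, or 9.64 per Mb (interval 2.63 to 24.7). The strongest were npr-20 (336), glr-4 (219.8) and dmsr-16 (189). The remaining one was mec-8 (156), which the list holds although it encodes an RNA-binding protein. Neuropeptides had 1 at 71 genes, nlp-36 (212), with an interval of 0.257 to 56.5 per Mb. The density over all genes, 74.9 per Mb, lies above these 3 intervals. It lies inside those of the other large families, which had few peaks over little territory. The insulin-like peptides had 0 at 37 genes, over 0.0354 Mb, and collagens 1 at 144, col-160 (177). C-type lectins and lysozymes had 1 at 272, clec-91 (221), with an interval of 0.461 to 102 per Mb. Detoxification enzymes had 2 at 171, ugt-43 (438) and cyp-35A4 (124), with an interval of 6.7 to 199.9, and transporters 2 at 69 genes (2.9%), pgp-2 (387) and slc-17.5 (156), with 4.3 to 128. In the homeobox list, which does not hold hmbx-1, 4 of 67 genes (5.97%) had a peak, at 34.7 per Mb (interval 9.47 to 88.9). Ribosomal protein genes had 2 at 1 of 79 genes (1.27%), both at rps-28 (193 and 105), or 108 per Mb (interval 13.1 to 392). Endoplasmic reticulum and secretion genes had 2 at 2 of 17 (11.8%), dnj-27 (199) and ire-1 (98.2), the only genes of that list with territory, or 372 per Mb (interval 45.1 to 1345). No list was tested, and territory, chromosome and gene spacing differ between lists.

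Among marker genes of tissues, intestine markers had 4 peaks at 3 of 12 genes (25%), against 2.71% of all autosomal protein-coding genes. These were at the intermediate filament gene ifb-2 (456 pooled, 243 in replicate 1, 213 in replicate 2) and the gut esterase gene ges-1 (134). The other 2 were neighbouring summits at the protease gene asp-1 (308 at 2709 bp and 98 at 2909 bp), and both are counted. Only 5 of the 12 had territory, with 302 peaks per Mb (interval 82.3 to 773), against 74.9 over all genes. On the gene-end side 16.7% of the intestine markers had a peak, against 2.6% of all genes. Neuron markers had 2 at 2 of 11 genes (18.2%), unc-64 (159) and snb-1 (110.3). With 8 of the 11 having territory, this was 109 per Mb, and the interval of 13.2 to 395 includes 74.9. Markers of muscle (4 genes), hypodermis (4) and germline (9) had 0, over territories of 0.00298, 0.0075 and 5.60e-04 Mb, where the counting limits are wide. The lists are short and a bound site near a marker does not show in which tissue it was bound.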

How the data were processed

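Per the labels, 2 biological replicates of whole young adults were used for ChIP-seq. The authors deposited ce11 peak lists for replicate 1 (30000 peaks), replicate 2 (29712) and both pooled (30000), and a thresholded list of 7038, of which 18 were mitochondrial and were left out. Peaks were called against a control, per the authors' deposited notes. Which aligner, caller and threshold were used is not stated there or in the labels. The signal value is the authors' own, on the caller's scale, and ranks peaks within 1 list. The deposited −log10 q-value was at its ceiling of 4.37 for all 7038 peaks and was not used. No depth is given, so intervals (95%) cover counting error only, and p-values treat peaks as independent.

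Summits were placed by the Ensembl 115 annotation of WBcel235, the assembly of ce11, and sequences were read from the RefSeq copy of that genome. Territory is all bases that meet the location rule. Overlap needed 1 bp, and a peak took the signal of the strongest replicate peak it overlapped. Shares were compared by two-sided Fisher's exact tests, densities by exact binomial tests and summits with flanks by exact McNemar tests, all adjusted by Benjamini-Hochberg within each family at 0.05, with Wilson, Newcombe or exact Poisson intervals. Alternatives were each replicate alone, peaks above the median signal, 1 summit per interval, a promoter window of 2000 bp upstream and 500 bp downstream, no sequence within 200 bp of noncoding genes, other overlap rules and other windows around the summit. The tests were tested on simulated data.

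Named were the 25 strongest peaks found in both replicates, the 12 genes with most peaks, up to 3 peaks per list of 27 gene lists, the peaks nearest to and farthest from a start and fat-1, fat-2, fat-5, nhr-80, nhr-49, mdt-15 and sbp-1. Other peaks were named after their values were seen. Sequences were taken from 8 of the strongest. The members, lists and tests were chosen with earlier results of these data known. Tests were run in scipy 1.17.1 under Python 3.11.15, tables were handled with pandas 2.3.3 and numpy 2.4.6, and plots were drawn with matplotlib 3.10.9.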

Additional observations from a re-analysis of the deposited data

How the results depend on the processing

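The density ratio of gene-start to gene-end side, the fall of density with distance and the concentration of TGATAA and GAGAGA at summits kept their direction and their side of the threshold under all alternatives that could be run, except that with peaks above the median signal the density ratio was 1.16 (p = 0.0642, exact). The distance test could not be run with the promoter window of 2000 bp, which removes the nearest bin. The number of autosomes past the threshold, 2 in the main test, was 2 or 3 with a replicate left out, 1 with peaks above the median, 0 with the wide window and 0 without sequence near noncoding genes. The share above the median signal, against gene-end peaks, turned to 0.917 percentage points with the upper quartile in place of the median, 0.178 with 1 summit per interval and 1.47 with the wide window, none of which passed. The share found in both replicates, against intergenic promoter peaks, ranged from 1.73 to 3.26 points with a replicate left out, and was 0.0971 with peaks above the median and 0.226 against any replicate peak. Against gene-end peaks it was 4.77 points when the overlap had to cover at least 50% of the interval (adjusted p = 0.0379, Fisher's exact test). The share of pooled peaks thresholded, against intergenic promoters, was -1.63 points above the median (adjusted p = 0.173, Fisher's exact test), and against gene-end peaks 2.9 points with the same summit required. The share above the median signal differed between peaks with and without TGATAA by 7.07 to 10.8 points with a replicate left out. This difference was 8.13 with the upper quartile and 11.6 within 100 bp. It did not pass in the main test (6.66 points, p = 0.116, Fisher's exact test) or without replicate 2 (7.07 points, p = 0.0874, Fisher's exact test). Nor did it pass with 1 summit per interval (5.35 points, p = 0.231, Fisher's exact test) or with the wide window (7.67 points, p = 0.209, Fisher's exact test). The same held without sequence near noncoding genes (7.34 points, p = 0.095, Fisher's exact test) and within 25 bp (7.48 points, p = 0.123, Fisher's exact test). The number of sequences past the threshold, 3 in the main test, was 3 or 4 with a replicate left out, 2 with peaks above the median, 5 with the wide window and 6 within 100 bp.

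Sequences that did not pass changed sign in places: AGGTCA ranged from -0.804 to 0.64 points with a replicate left out and was -0.176 with 1 summit per interval and -0.31 with the wide window. AATAGT ranged from -0.322 to 2.08 points with a replicate left out. AGATAA was -1.22, TGTTTAC -0.304 and AAGTCCA 0 with peaks above the median, TGTTTAC was 0 within 25 bp and AAGTCCA 0.328 within 100 bp. The GAGAGA share against gene-end peaks was -2.49 points with the wide window. The causes of these changes were not tested. No paired analysis was possible because there is 1 group. Depth is unknown, so a site missing from a list cannot be read as unbound.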
